A study of Mus musculus with 35 samples.

Results

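Transcripts of the presynaptic vesicle release machinery were followed through hippocampal RNA of mice with experimental epilepsy. The 35 genes were chosen by name, as components of synaptic vesicles, of the SNARE fusion apparatus, of the active zone and of vesicle recycling, and they are 35 of the 32544 genes counted in the series. All 35 had reads in every library used and all were tested in every comparison. Male C57BL/6JOlaHsd mice, young adults, received kainic acid into the amygdala (KA) or the vehicle PBS at the same place. Kainic acid is a glutamate receptor agonist that starts status epilepticus, a prolonged seizure, which lorazepam then curtailed, and spontaneous seizures follow in the weeks after. Whole hippocampus was taken 24 h or 2 weeks after the injection. RNA was sequenced after immunoprecipitation with an antibody to N6-methyladenosine (m6A libraries), the methyl mark on adenosine that is common in neuronal mRNA, and, for all but 3 of these mice (mice 50, 78 and 79), also as total RNA in a separate library (input).

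An action potential releases transmitter by opening calcium channels at the active zone, where docked vesicles are held ready. Active zone scaffolds (Bassoon, Piccolo, ERC2, RIM) and the Munc13 priming proteins bring a vesicle to the membrane, SNARE proteins on the vesicle and the plasma membrane pull the membranes together, complexins clamp and then aid that step, and synaptotagmins sense calcium. Synapsins tether the reserve pool, vesicular glutamate transporters fill the vesicle, and dynamin, amphiphysin and synaptojanin recover its membrane by endocytosis. In hippocampus these proteins serve the terminals of granule cells, pyramidal cells and interneurons, and SV2A among them is the target of the antiseizure drug levetiracetam.

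The m6A libraries comprised 5 KA and 3 PBS mice at 24 h and 6 KA and 5 PBS mice at 2 weeks, with 1652933 to 34564536 counts each. The input libraries used comprised 3 KA mice and 1 PBS mouse at 24 h and 6 KA and 3 PBS mice at 2 weeks, with 3057578 to 12694434 counts, and 3 further input libraries of 3171 to 34486 counts were set aside. Headings of the m6A columns carry the prefixes 3, 4 or 5, which the sources used here do not explain and which are called library sets. At 24 h the KA mice lay in sets 3 (mice 67, 98 and 8) and 4 (mice 97 and 79) and the PBS mice in sets 4 (mice 71 and 73) and 5 (mouse 1). At 2 weeks the KA mice lay in sets 3 and 5, 3 mice each, and the PBS mice in sets 4 (mice 50 and 78) and 5 (mice 2, 3 and 4). Set and treatment therefore overlap only in part. Values within a set are given beside the pooled ones for the members together, and for single genes where stated. Among the inputs used, the headings of KA mouse 8 at 24 h and KA mice 6, 7 and 9 at 2 weeks begin with Input. No PBS input used has such a heading, so kind of heading and treatment are mixed in the input comparisons too. KA mouse 8 at 24 h stood apart in both assays. Its 10 neuronal markers summed to 1510 CPM (counts per 1000000) in input against 2621 to 3956 in the other inputs, and to 1672 in m6A against 3130 to 6837. Its astrocyte markers were low as well, at 380 CPM in input against 711 to 3409 and 622 in m6A against 774 to 3814. It had reads for 28574 genes in input and 28496 in m6A, against at most 25529 and 27003 in the others. Mitochondrial genes took 17.4% of its input counts against 1.41% to 6.45% in the others, whereas its m6A share of 16.4% lay within the 1.86% to 17.5% of the other m6A libraries. In its m6A library 28 of the 35 members, and in its input 30, were lower than in every other KA mouse at 24 h, as were 62.9% and 64.5% of all genes. No excitatory neuron, astrocyte, microglia or oligodendrocyte marker was at 0 in any group. This cannot tell hippocampus from other brain tissue that holds these cells.

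Levels spanned a wide range in PBS input RNA. Expressed per kilobase of the canonical transcript, over 4 PBS mice, Snap25, the plasma membrane SNARE, led with 490.8 ± 87.4 CPM per kb (SD). The calcium sensor Syt1 followed with 234 ± 61.8 and the vesicle SNARE Vamp2 with 189.6 ± 31.1 CPM per kb, and the ranges of this pair over the 4 mice overlapped. Syp, Rab3a, Dnm1 and Cplx2 lay between 133 and 154 CPM per kb. The active zone scaffolds stood lower, with Erc2 at 87.0 ± 8.59, Pclo at 40.9 ± 5.67 and Bsn at 12.1 ± 2.13 CPM per kb. Slc17a7, the vesicular glutamate transporter of hippocampal principal cells, was at 68.6 ± 15.9 CPM per kb, and Slc17a6, which is typical of thalamic and other subcortical glutamate neurons, at 9.60 ± 2.41. At the foot of the order were Syt2 with 5.03 ± 2.95, Sv2c with 3.57 ± 0.396 and Syn3 with 1.52 ± 0.295 CPM per kb.

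The first question was which of these transcripts the antibody brought down more or less than the rest of the transcriptome. In 13 mice both libraries could be used, and m6A was set over input within each mouse on a scale where 0 is the typical gene. In PBS mice 1 of the 35 members passed the threshold, an adjusted p under 0.05 in edgeR, which is 2.86% of the members against 2.74% of all 16634 genes tested, and it was higher in m6A, as were 1.74% of all genes. In KA mice at 2 weeks 4 members passed, 11.4% against 11.5% of all genes, 2 of them higher (6.74% of all genes) and 2 lower (4.79%), and in KA mice at 24 h none passed against 0.355% of all genes. The members' shares were thus close to those of all genes where any passed. At an unadjusted p under 0.05, 8 members (22.9% against 19.7% of all genes) passed in PBS mice, 10 (28.6% against 28%) in KA mice at 2 weeks and 11 (31.4% against 10.4%) in KA mice at 24 h. DESeq2 called 4, 7 and 1 members in the same order and limma-voom with quality weights 8, 15 and 3. In PBS mice and in KA mice at 2 weeks both tools also called more of all genes than edgeR, by the totals given in the last section. No such total is given for KA mice at 24 h, so these counts are not read as a result about the members.

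The 5 members that these ratios turn on are Erc2 and Pclo, which lay above the typical gene, Syt7 and Syn2, which lay below it, and Cplx1, whose ratios lay highest without passing. The consensus of the m6A methyltransferase is centred on the sequence GGACT. For each transcript the site nearest to the stop codon is shown among those whose 29-base window lay within 1 exon. Nearer motifs at exon junctions were passed over. Windows were read from the GENCODE M39 canonical transcript of the GRCm39 build, 5′ to 3′ on the transcript strand, with the motif in capitals.
Erc2: aggactgaaaagGGACTccaaactgaagt
Pclo: agtacaagagaaGGACTaaatatgtccag
Cplx1: catagtggggtgGGACTtggggaatgagc
Syt7: gctgccagccaaGGACTtcagcggtacta
Syn2: ctctgtaacgtaGGACTcctggcagctta
The Erc2 window is chr14:27747037-27747065 on the plus strand, in the coding part of exon 10 of 16, at an offset of -880 bases from the last coding base, and a further copy of the motif lies in its left flank. The Pclo window is chr5:14838417-14838445 on the plus strand, coding, in exon 17 of 25 at an offset of -1154 bases. Cplx1 carries the motif at chr5:108667579-108667607 on the minus strand, in the 3′ untranslated part of exon 4 of 4, at an offset of 402 bases. Syt7 has it at chr19:10416647-10416675 on the plus strand, in coding exon 8 of 12 at -715 bases, and Syn2 at chr6:115258518-115258546 on the plus strand, in the 3′ untranslated part of exon 13 of 13 at 348 bases. The motif shown was thus coding in Erc2, Pclo and Syt7 and lay past the stop codon in Cplx1 and Syn2. All 35 members hold at least 1 GGACT on the transcript strand, as do 88.8% of 21749 protein-coding genes, and the members' median was 5 copies against 3. Per kilobase the medians were close, with 1.05 in the members and 1.01 in all genes. Over the 35 members the ratio in PBS mice had a Spearman rho of 0.09 with the motif's density and 0.15 with transcript length, and over 14264 protein-coding genes rho was -0.04 and -0.03 (transcripts of 1 genome measured in the same libraries, a description only). The counts are per gene, so no value here belongs to a single site.

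Erc2, an active zone scaffold that binds RIM and Bassoon, had log2 ratios of 0.58, 0.63, 0.68 and 0.72 in PBS mice 1, 2, 3 and 4. In KA mice 67, 98 and 8 at 24 h they were 0.34, 0.40 and 0.58, and in the 6 KA mice at 2 weeks 0.13 to 0.95 with a median of 0.62. It was the single member above 0 in all 13 mice, where 2.66% of 14342 genes counted in all these libraries were. The mean log2 ratio was 0.65 ± 0.14 (SE, edgeR adjusted p = 0.0217) in PBS mice and 0.53 ± 0.12 (adjusted p = 0.00873) in KA mice at 2 weeks. The call in PBS mice was lost without PBS mouse 2, 3 or 4, with adjusted p up to 0.124 and log2 ratios of 0.62 to 0.65, and was kept without any other mouse. In KA mice at 2 weeks it was lost without KA mouse 9 (log2 ratio 0.45, adjusted p = 0.0532, in a range of 2.84e-05 to 0.141 over all alternatives).

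Pclo, the giant scaffold Piccolo, had ratios of 0.14, 0.53, 0.77 and 0.66 in the same order of PBS mice and -0.02 to 0.66 with a median of 0.56 in KA mice at 2 weeks. KA mouse 21 held its lowest ratio and the other 12 mice were above 0. The mean was 0.53 ± 0.14 in PBS mice, where it did not pass (adjusted p = 0.0568), and 0.49 ± 0.12 in KA mice at 2 weeks, where it did (adjusted p = 0.0152). Without KA mouse 5, 7 or 9 the latter call was lost, with log2 ratios of 0.45 to 0.47. Its partner scaffold Bsn showed no such value, with 0.01 ± 0.14 in PBS mice and -0.24 ± 0.11 in KA mice at 2 weeks, neither past the threshold.

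Syt7, a slow, high-affinity calcium sensor of asynchronous release, had ratios of -0.33, -0.58, -0.22 and -0.49 in PBS mice and -0.62, -0.50 and -0.57 in KA mice 67, 98 and 8. In KA mice at 2 weeks they were -0.95 to -0.27 with a median of -0.53. All 13 mice were below 0, which held for 1.95% of genes and for no other member. The mean was -0.40 ± 0.13 in PBS mice (adjusted p = 0.0993), -0.57 ± 0.11 in KA mice at 2 weeks (adjusted p = 0.00383) and -0.56 ± 0.16 in KA mice at 24 h (adjusted p = 0.160). The call at 2 weeks held without each mouse in turn. Syn2, a synapsin of the reserve pool, had -0.47, -0.53, -0.69 and 0.46 in PBS mice and -0.95 to -0.15 with a median of -0.56 in KA mice at 2 weeks, where its mean was -0.54 ± 0.16 (adjusted p = 0.0420). PBS mouse 4 alone was above 0 for Syn2, and its call at 2 weeks was lost when any 1 of 7 mice was left out.

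Cplx1, the complexin of fast inhibitory and many excitatory terminals, had the highest ratios and the widest spread. They were 0.51, 1.12, 2.14 and 1.05 in PBS mice and -0.82 to 1.54 with a median of 1.15 in KA mice at 2 weeks, the lowest in KA mouse 6, whose m6A library had a mitochondrial share of 17.5%. Its mean was 1.19 ± 0.34 in PBS mice (adjusted p = 0.0732) and 0.84 ± 0.28 in KA mice at 2 weeks (adjusted p = 0.0669). The counts of members called moved with single mice. Without KA mouse 6 they were 4 in PBS mice and 7 in KA mice at 2 weeks, without PBS mouse 1 or KA mouse 21 there were 2 in PBS mice, and without PBS mouse 2, 3 or 4 none. In KA mice at 2 weeks 2 members were called without KA mouse 5 or 7 and 1 without KA mouse 9.

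By role, 7 of the 8 active zone members lay above 0 in PBS mice, with a median log2 ratio of 0.25, and 6 of the 8 vesicle membrane members lay below it, with a median of -0.26. The 10 anchor genes Syn1, Syp, Syt1, Snap25, Vamp2, Slc17a7, Slc17a6, Rims1, Unc13a and Bsn ranged from -0.34 (Syn1) to 0.31 (Syp) in PBS mice, with none past the threshold. In KA mice at 24 h the members of smallest p were Syt7 (above), Vamp1, a SNARE of fast-spiking terminals (-0.55 ± 0.18), and Rims2, an active zone organiser (0.48 ± 0.17). Among 58 further release and recycling genes tested, 3 passed in PBS mice (5.17% against 2.74% of all genes) and 9 in KA mice at 2 weeks (15.5% against 11.5%). Erc1, the paralogue of Erc2, was above the typical gene in both (log2 ratios of 0.64 and 0.51), as was the clathrin light chain Clta (0.58 and 0.38), and Dnajc5, a vesicle chaperone, was below it (-0.77 and -0.53). Scaling by library size in place of TMM moved the median of all genes by 0.19 in PBS mice, and that of the members by the same 0.19, so ratios are read relative to the typical gene. Under that scaling 4 members passed in PBS mice and 2 in KA mice at 24 h, counts that are given without the share of all genes.

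**Figure D1:**
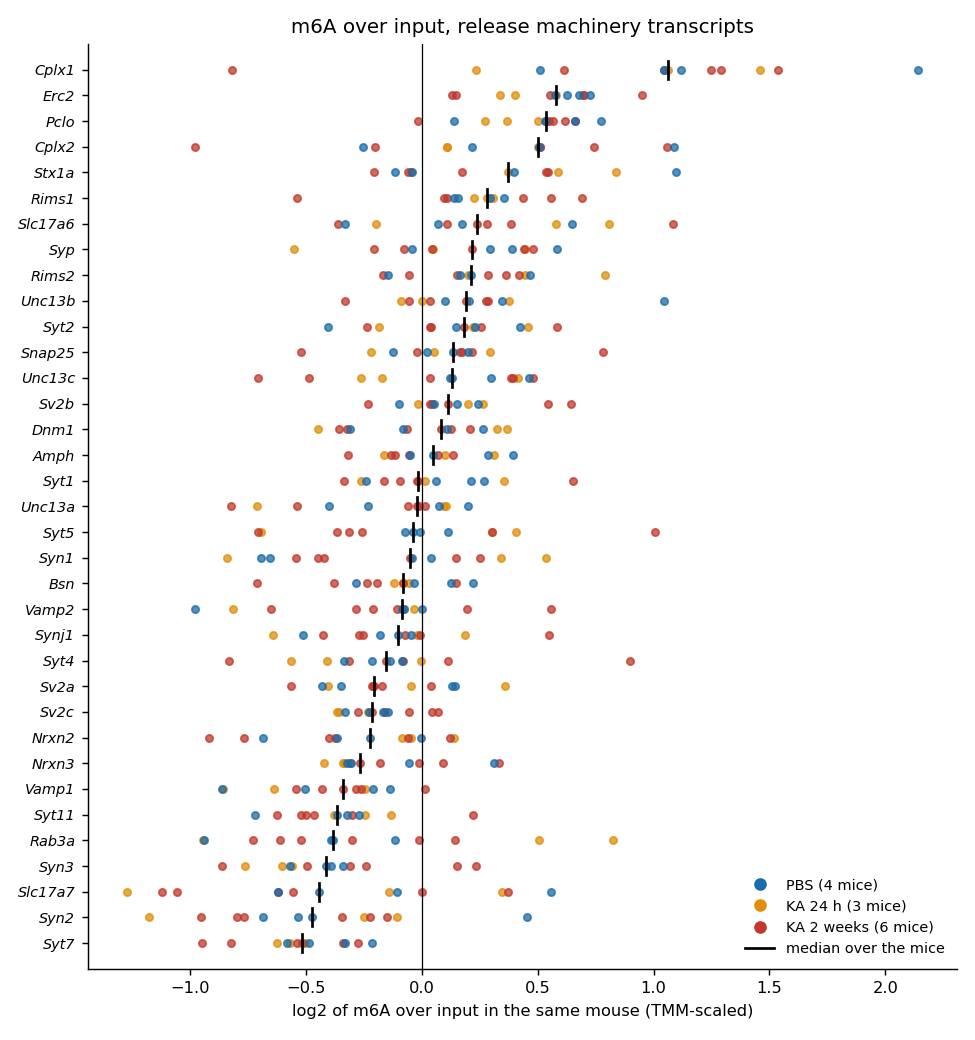
Log2 ratio of m6A over input within each of 13 mice (x axis, TMM-scaled, no unit) for the 35 members (y axis), sorted by their median, with points coloured by group and a black bar at the median. Every point of Erc2 lies above 0 and every point of Syt7 below it, and Cplx1 has the highest median and the widest spread.

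The main contrast asked whether the release machinery changed in the m6A libraries after kainic acid. At 24 h 27 of the 35 members were lower in KA than in PBS mice, with a median log2 fold of -0.25 against 0.08 over all 16470 genes tested. None passed the threshold by edgeR (smallest adjusted p = 0.535), against 0.00607% of all genes, and 2 members had an unadjusted p under 0.05, which is 5.71% against 5.31%. DESeq2 also called none, and limma-voom with quality weights called 4 (11.4% against 6.8% of all genes), namely Sv2c, Slc17a6 and Unc13b higher and Syt7 lower. All of the 3 endocytosis genes, 7 of 8 active zone genes and 5 of 6 SNARE and complexin genes had negative folds. Without KA mouse 8 there were 22 lower members with a median of -0.17. Within library set 4 alone (KA mice 97 and 79, PBS mice 71 and 73) there were 29, with a median of -0.48. Sv2c and Syn2 passed the threshold there, 5.71% of the members against 2.11% of all genes. Set 4 folds of the anchors were -0.61 (Syn1), -0.77 (Syp), -0.79 (Syt1), -0.48 (Snap25), -0.61 (Vamp2), -0.66 (Slc17a7), 1.00 (Slc17a6), -0.57 (Rims1), -0.27 (Unc13a) and -0.49 (Bsn). Excitatory neuron markers were also lower, 5 of 6 with a median log2 fold of -0.43 in all libraries. Within set 4 they summed to 2923 and 2979 CPM in KA against 4318 and 4907 in PBS mice, while astrocyte markers summed to 3227 and 3261 against 1172 and 1491. The astrocyte list was divided, however, with 3 of 6 markers higher and 3 lower in all libraries. Their median log2 fold was 0.33, from -1.23 for Gja1 to 1.95 for Gfap. General neuronal markers, 8 of 10 lower in all libraries with a median of -0.08, summed within set 4 to 6254 and 6837 CPM in KA against 5652 and 6090 in PBS mice. The part of these markers in the members' values was not tested. In bulk tissue a lower CPM can mean fewer cells of a type or less RNA per cell, and these cannot be told apart.

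At 2 weeks 29 of the 35 members were lower in the m6A libraries of KA mice, with a median of -0.15 against 0.00 over all 16157 genes tested. None passed by edgeR (smallest adjusted p = 0.875), DESeq2 or limma-voom, as 0% of all genes did by edgeR, and 2 members had an unadjusted p under 0.05 (5.71% against 5.01%). Within library set 5 alone, 3 KA and 3 PBS mice, 18 members were lower and 17 higher, and the median was -0.01. The excess of lower members thus held in the pooled libraries and not within that set. The 2 PBS mice of set 4 differed from the 3 of set 5 in the same group. Their summed member level was 15392 and 15769 CPM against 11614 to 12168, and 18 of the 35 members were higher in both set 4 mice than in all set 5 mice (51.4% against 27.7% of 13185 genes), while 10 were lower in both (28.6% against 31.2%), with Slc17a6, Unc13c and Snap25 among them. Summed excitatory neuron markers moved the same way, with 4814 and 5321 CPM in set 4 against 1579 to 2086 in set 5, and their part in the members' values was not tested.

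**Figure D2:**
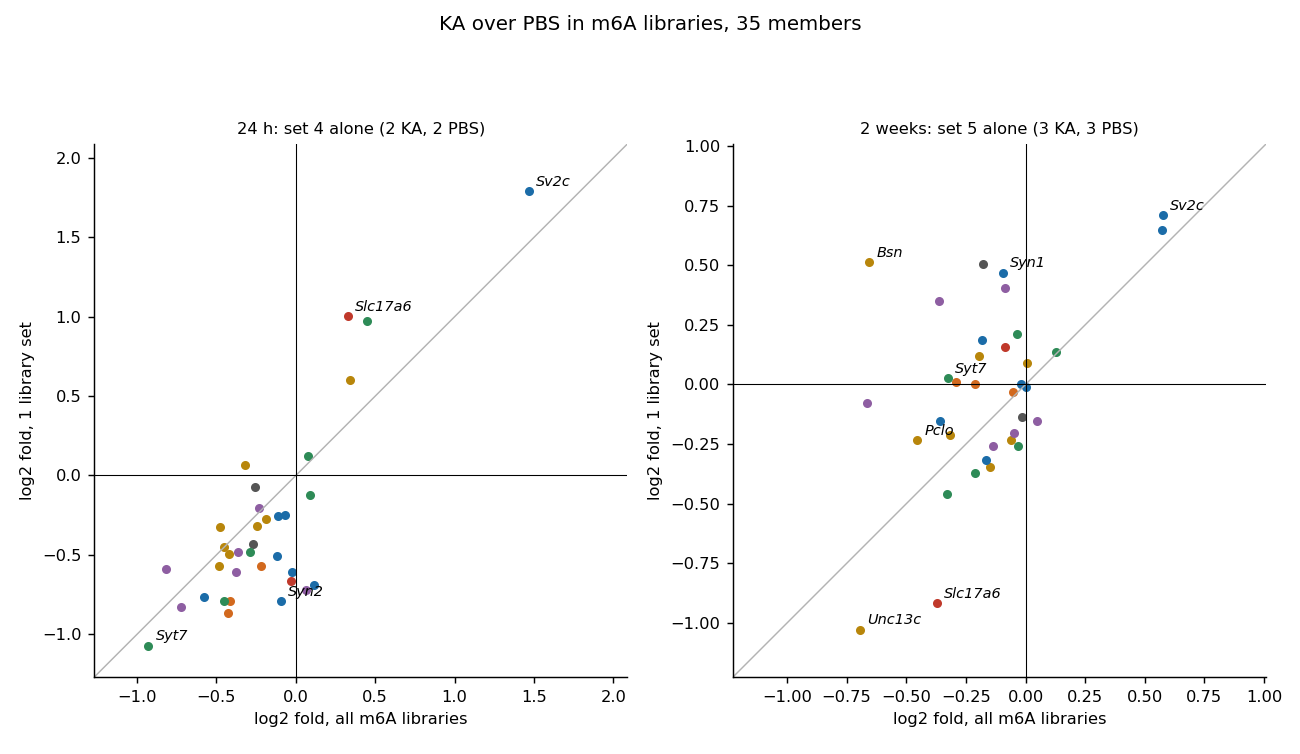
Log2 fold of KA over PBS in m6A libraries for each member with all libraries (x axis) and within 1 library set (y axis), at 24 h in set 4 (left) and at 2 weeks in set 5 (right), coloured by role as in the plot of all folds; the grey line marks equal values. At 24 h 29 points lie below 0 on the y axis, and at 2 weeks 18.

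In input RNA the same contrast also gave more lower than higher members at 24 h. At 24 h, against the single PBS mouse deep enough to use, 22 of the 35 members were lower with a median of -0.19, where all 17644 genes tested had a median of 0.27. None passed by edgeR (smallest adjusted p = 0.315, as 0% of all genes did), and 5 had an unadjusted p under 0.05 (14.3% against 9.23%). DESeq2 called 1 member lower (2.86% against 1.14% of all genes) and limma-voom called 3 (6.1% of all genes). Groups did not overlap for 18 members (51.4%), 1 above and 17 below the PBS mouse, but with 1 PBS library 44% of all genes did the same, 10.9% above and 33.1% below. The members summed to 12062 CPM in PBS mouse 1, and to 9536.6, 7778.5 and 9042.5 CPM in the PBS inputs at 2 weeks. Without KA mouse 8, 18 members were lower and the median was -0.01. Under library-size scaling the members' median became -0.48 while that of all genes moved from 0.27 to -0.04.

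At 2 weeks 22 of the 35 members were higher in the input of KA mice, with a median of 0.07 against 0.02 over all 13752 genes tested. None passed by edgeR (smallest adjusted p = 0.242, 0% of all genes), 9 had an unadjusted p under 0.05, 5 higher and 4 lower (25.7% against 14.1% of all genes, of which 8.41% higher and 5.69% lower), and DESeq2 called 3 lower (Syt4, Slc17a6 and Unc13c, against 0.822% of all genes in either direction). For 6 members the 6 KA and 3 PBS mice did not overlap, 17.1% against 6.44% of all genes, with Slc17a7 above (2.64% of all genes) and Syt4, Slc17a6, Unc13c, Rims2 and Snap25 below (3.8%). Astrocyte markers (6 genes) summed to 1232 to 3409 CPM in these KA inputs and 711 to 1094 in the PBS inputs, and microglial markers (6 genes) to 100.2 to 234 and 80.1 to 116, a shift whose part in the members' values was not tested. Summed neuronal markers overlapped, at 2621 to 3956 and 2740 to 3425 CPM. Of 6 excitatory neuron markers 5 were higher in KA mice and 1 lower, with a median log2 fold of 0.55. For 2 of them all KA mice were above all PBS mice, and their part in the members' values was not tested.

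**Figure D3:**
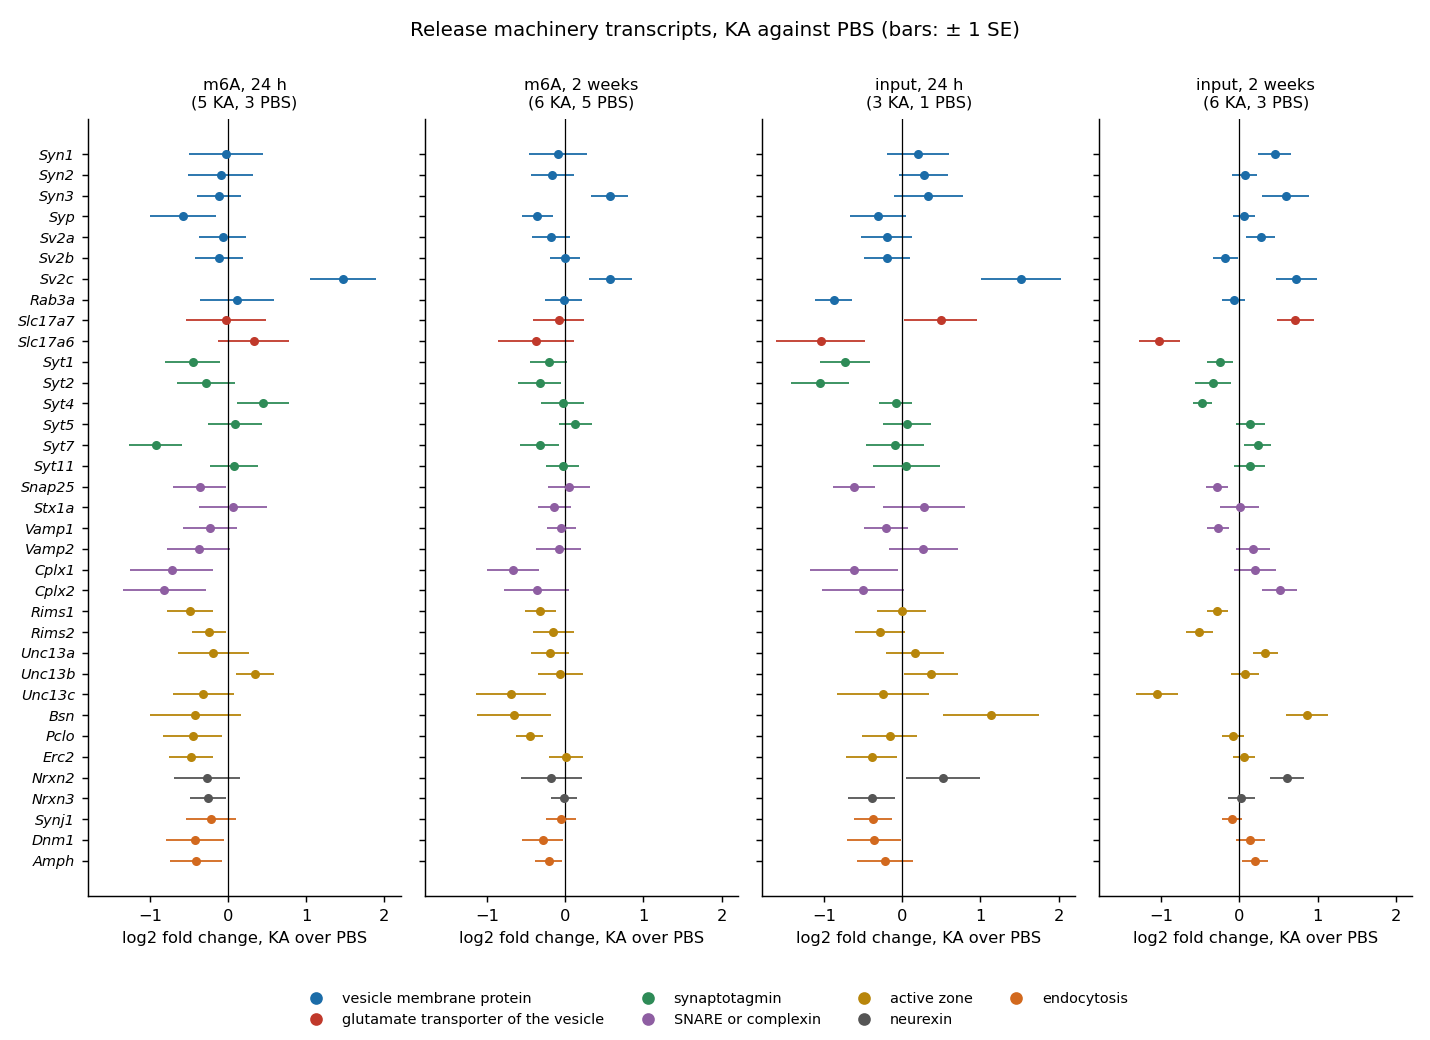
Log2 fold change of KA over PBS (x axis) for the 35 members (y axis, grouped and coloured by role) in m6A and input libraries at 24 h and 2 weeks, with bars of 1 SE from edgeR. Most points lie left of 0 in both m6A panels, and Sv2c lies right of 0 in all 4.

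The members are taken in turn by role. Values at 24 h are given in the order PBS mice 71, 73 and 1 and KA mice 67, 98, 97, 79 and 8 for m6A, and PBS mouse 1 and KA mice 67, 98 and 8 for input. Values at 2 weeks are in the order PBS mice 50, 78, 2, 3 and 4 for m6A and PBS mice 2, 3 and 4 for input, with a range and median for the 6 KA mice. All are in CPM, and folds are log2 values of KA over PBS with their SE.

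Sv2c, the minor SV2 glycoprotein that is enriched in basal ganglia and in some interneurons, had the largest positive fold of any member in 3 of the 4 comparisons, Bsn being higher in input at 2 weeks. Its m6A level at 24 h was 40.7, 43.1 and 29.8 in PBS and 136, 65.9, 195, 121 and 37.5 in KA mice. The 4 KA mice other than mouse 8 were all above the 3 PBS mice, and the fold was 1.47 ± 0.43 (edgeR adjusted p = 0.535). Within set 4 it was 1.79 ± 0.25. At 2 weeks PBS mice had 51.8, 51.8, 35.9, 33.4 and 28.7 and KA mice 33.7 to 111 with a median of 49.3, a fold of 0.58 ± 0.27 with overlapping groups and 0.71 ± 0.21 within set 5. In input the 24 h values were 32.2 in the PBS mouse and 115, 69.9 and 43.6 in KA mice (1.52 ± 0.51). At 2 weeks input levels were 37.5, 29.1 and 31.1 in PBS and 36.2 to 87.7 with a median of 45.4 in KA mice (0.73 ± 0.26). Its fold was positive in all 4 comparisons, and at 24 h it stayed between 1.13 and 1.79 over both assays and all alternatives, with adjusted p in m6A from 0.00249 (limma-voom) to 1.00 and, in set 4 alone by edgeR, 0.0258.

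Syn1, the principal synapsin, held 283, 306 and 119 in PBS and 377, 362, 214, 208 and 65.7 in KA mice at 24 h in the m6A libraries, a fold of -0.03 ± 0.48. PBS mouse 1 (set 5) was below PBS mice 71 and 73 (set 4), and KA mouse 8 was lowest of all. At 2 weeks the PBS mice had 254, 274, 117, 113 and 86.5 and the KA mice 89.0 to 279 with a median of 117, which gave -0.10 ± 0.37 in all libraries and 0.47 ± 0.32 within set 5. In input it was 185 in PBS and 187, 235 and 107 in KA mice at 24 h (0.20 ± 0.39) and 108, 87.0 and 117 in PBS and 97.1 to 192 with a median of 135 in KA mice at 2 weeks (0.45 ± 0.22). Syn3, the scarcest synapsin, had m6A levels of 14.0, 15.1, 13.0, 11.7 and 8.36 in PBS and 11.5 to 27.1 with a median of 16.3 in KA mice at 2 weeks, a fold of 0.57 ± 0.23 (edgeR adjusted p = 0.875). The KA and PBS mice overlapped for both synapsins. Syn2, whose ratio is given above, showed folds of -0.09 ± 0.42 and -0.16 ± 0.27 in m6A and 0.27 ± 0.31 and 0.07 ± 0.16 in input.

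Syp, the abundant vesicle membrane protein synaptophysin, had m6A levels of 794, 942 and 577 in PBS and 828, 658, 657, 458 and 141 in KA mice at 24 h (-0.58 ± 0.42), with mouse 8 far below the others. The other 4 KA mice overlapped the PBS mice. At 2 weeks it had 723, 679.7, 505, 499 and 626 in PBS and 325 to 612 with a median of 409 in KA mice (-0.36 ± 0.20). Its input values were 571 in PBS and 437, 523 and 188 in KA mice at 24 h (-0.31 ± 0.36). At 2 weeks they were 368, 300.2 and 360.1 in PBS and 291 to 389 with a median of 355 in KA mice (0.06 ± 0.14), so that the m6A and input folds differed in sign but lay within 2 SE of 0. Rab3a, the vesicle GTPase that binds RIM, was the member of smallest p in input at 24 h. The PBS mouse had 372 and the KA mice 171, 183 and 140.0, all lower (-0.88 ± 0.24). The inputs of PBS mice 2, 3 and 4 at 2 weeks had 185, 141 and 169.9. These lie near the KA values, so the fold rests on 1 PBS mouse that stood above the others. In the m6A libraries Rab3a at the same time had 0.11 ± 0.48 in all libraries, with groups that overlapped, and -0.69 ± 0.16 within set 4. Sv2a had folds of -0.07 ± 0.30 and -0.18 ± 0.24 in m6A, and Sv2b -0.12 ± 0.31 and 0.00 ± 0.19.

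The vesicular glutamate transporters parted in input. Slc17a7 (VGLUT1) had 202, 156 and 203 CPM in PBS and 207 to 415 with a median of 282 in KA mice at 2 weeks, and all 6 KA mice were above all 3 PBS mice (0.71 ± 0.24, edgeR adjusted p = 0.277). Slc17a6 (VGLUT2) had 34.9, 54.7 and 32.7 in PBS and 8.74 to 23.9 with a median of 20.9 in KA mice, and all 6 were below (-1.02 ± 0.26, edgeR adjusted p = 0.242). The lowest was KA mouse 42, without which the fold was -0.89 ± 0.21, and without PBS mouse 3, the highest, it was -0.70 ± 0.27. A list of 6 thalamic markers summed to 118 to 191 CPM in these PBS inputs and 107 to 145 in the KA inputs. By log2 fold 4 of the 6 were higher in KA mice and 2 lower, with a median of 0.10. The part of this list in the Slc17a6 value was not tested. At 24 h the input levels of Slc17a7 were 274 in PBS and 336, 455 and 166 in KA mice (0.49 ± 0.47), and those of Slc17a6 48.9 in PBS and 20.2, 7.68 and 26.9 in KA mice (-1.04 ± 0.57). The pooled m6A folds of both were smaller than their SE at 24 h. Within set 4 they were -0.66 ± 0.20 for Slc17a7 and 1.00 ± 0.25 for Slc17a6. Slc17a7 had 394, 415 and 185 in PBS and 594, 501, 328, 229.7 and 75.9 in KA mice at 24 h (-0.03 ± 0.52) and 344, 375, 166, 184 and 347 in PBS and 123 to 507 with a median of 217 in KA mice at 2 weeks (-0.09 ± 0.33). Slc17a6 was lower in the m6A libraries of PBS mice of set 4 than in those of set 5, with 10.3, 14.4 and 40.4 in PBS and 41.9, 16.3, 24.3, 29.4 and 25.9 in KA mice at 24 h (0.33 ± 0.46). All 5 KA mice were above the PBS mice of set 4. At 2 weeks it was 16.0, 14.4, 44.0, 73.0 and 59.6 in PBS and 8.33 to 52.8 with a median of 28.2 in KA mice, a fold of -0.37 ± 0.49 in all libraries and -0.92 ± 0.26 within set 5, where the 3 KA mice were below the 3 PBS mice.

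**Figure D4:**
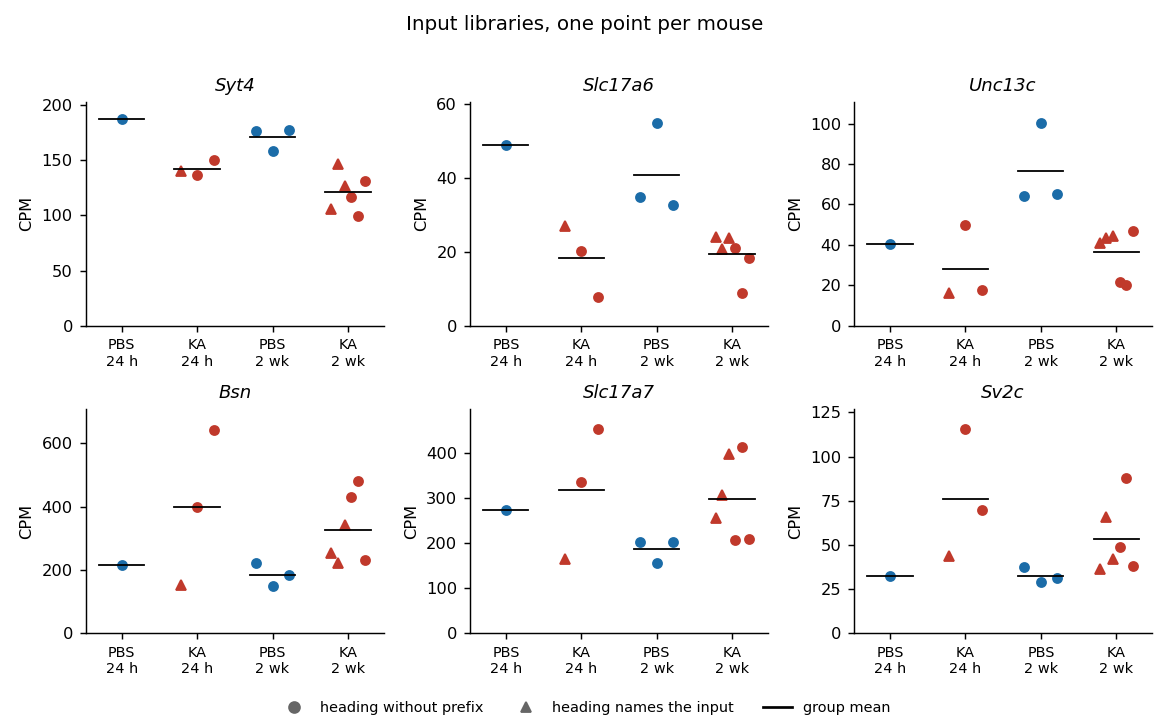
Input level in CPM (y axis, from 0) of 6 members in each mouse by group, with the group mean as a black bar and the shape of the point showing the kind of column heading. At 2 weeks Syt4, Slc17a6 and Unc13c are lower in all 6 KA mice than in the 3 PBS mice, and Slc17a7 is higher.

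Among the synaptotagmins, Syt1, the fast calcium sensor, had m6A levels of 1111, 1028 and 1338 in PBS and 1328, 1220.3, 749, 597 and 475 in KA mice at 24 h (-0.45 ± 0.35). Its 2-week m6A levels were 923, 975, 1399, 1260.2 and 1244 in PBS and 603 to 1296 with a median of 887 in KA mice (-0.21 ± 0.24). In input it was 1522 in the PBS mouse and 747, 994 and 517 in KA mice at 24 h (-0.73 ± 0.32), all below, and 1081, 822 and 1027 in PBS and 622 to 1049 with a median of 779 in KA mice at 2 weeks (-0.25 ± 0.16). At 24 h the lowest m6A levels of Syt1 were those of KA mice 97, 79 and 8, below all PBS mice. Syt2, its paralogue in fast-spiking interneurons, had 66.1 in PBS and 31.5, 19.2 and 26.0 in KA mice in input at 24 h (-1.05 ± 0.37). In the inputs of PBS mice 2, 3 and 4 at 2 weeks Syt2 had 37.5, 24.0 and 18.2. Syt7 had m6A levels of 196, 257 and 121 in PBS and 116, 131, 129.6, 107 and 44.3 in KA mice at 24 h, a fold of -0.93 ± 0.33 (edgeR adjusted p = 0.726). PBS mouse 1 overlapped the KA mice, and without KA mouse 8 the fold was -0.77 ± 0.29. The input fold of Syt7 at that time was -0.10 ± 0.37. Syt4, an activity-induced synaptotagmin that does not bind calcium in the usual way, had 177, 158 and 177 in PBS and 99.6 to 146 with a median of 122 in KA inputs at 2 weeks. All KA mice were lower (-0.47 ± 0.12, edgeR adjusted p = 0.242), and within the inputs whose headings carry no prefix the fold was -0.52 ± 0.15. In the m6A libraries Syt4 had 0.45 ± 0.33 at 24 h and -0.03 ± 0.28 at 2 weeks. Syt5 and Syt11 had folds between -0.03 and 0.14 in all 4 comparisons.

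Snap25 had m6A levels of 946, 828 and 1497 in PBS and 1121, 1187, 706, 672 and 618 in KA mice at 24 h (-0.36 ± 0.34) and 833, 878, 1376, 1134 and 1309.5 in PBS and 542 to 1526 with a median of 1093 in KA mice at 2 weeks (0.05 ± 0.27). The m6A levels overlapped at both times. In input it was 1416 in PBS and 656, 940.4 and 652 in KA mice at 24 h (-0.62 ± 0.27). In the 2-week inputs it was 1073, 973 and 1028 in PBS and 636 to 883 with a median of 855 in KA mice (-0.29 ± 0.14), and the KA mice were all below the PBS mice. Vamp2, the vesicle SNARE of most hippocampal terminals, had m6A levels of 399, 411 and 241 in PBS and 402, 365, 299.6, 279.8 and 78.9 in KA mice at 24 h (-0.38 ± 0.40), with mouse 8 again lowest. At 2 weeks they were 365, 411, 246, 198 and 135 in PBS and 175 to 327 with a median of 223 in KA mice (-0.09 ± 0.28). Input levels of Vamp2 overlapped at both times, with 246 in PBS and 305, 307 and 126 in KA mice at 24 h (0.27 ± 0.44) and 219.9, 165 and 229 in PBS and 160.3 to 329.6 with a median of 209.9 in KA mice at 2 weeks (0.18 ± 0.22). Stx1a, Vamp1, Cplx1 and Cplx2 did not pass in any of the 4 comparisons. Cplx1 and Cplx2 had the most negative m6A folds of the group at 24 h, -0.72 ± 0.54 and -0.82 ± 0.53.

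In the active zone, Rims1, which links vesicles to calcium channels, had m6A levels of 567, 562 and 337 in PBS and 368, 431, 432, 397 and 178 in KA mice at 24 h (-0.49 ± 0.30). Levels at 2 weeks were 506, 523, 436, 491 and 446 in PBS and 187 to 523 with a median of 379 in KA mice (-0.32 ± 0.20). Groups overlapped at both times. Its input levels were 264 in PBS and 218, 304 and 131 in KA mice at 24 h (-0.01 ± 0.32) and 354, 302 and 345 in PBS and 203 to 314 with a median of 273 in KA mice at 2 weeks (-0.29 ± 0.13). Unc13a, the main Munc13 priming factor, had m6A levels of 245, 297 and 119.7 in PBS and 241, 251, 257, 234 and 47.1 in KA mice at 24 h (-0.19 ± 0.45), where the 4 KA mice other than mouse 8 lay within the range of the PBS mice. The later m6A levels were 269, 278, 166, 155 and 196 in PBS and 101 to 265 with a median of 179 in KA mice (-0.20 ± 0.24). In input it was 152 in PBS and 163, 192 and 69.9 in KA mice at 24 h (0.16 ± 0.38), and 174, 116 and 147 in PBS and 136 to 219 with a median of 174 in KA mice at 2 weeks (0.33 ± 0.16). Neither assay separated the groups for Unc13a at 2 weeks. Unc13c, a Munc13 isoform best known from cerebellum, had 64.4, 100.4 and 65.4 in PBS and 20.3 to 47.1 with a median of 42.1 in KA inputs at 2 weeks, all 6 lower (-1.06 ± 0.27, edgeR adjusted p = 0.242). Without PBS mouse 3, the highest, its fold was -0.75 ± 0.28. Rims2 was lower in the same comparison (-0.52 ± 0.17) without passing.

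Bsn (Bassoon) is a large scaffold of the active zone. Its m6A level was 1064, 1113 and 185 in PBS and 535, 721, 844, 842 and 158 in KA mice at 24 h (-0.42 ± 0.58). Later, at 2 weeks, it was 1089.7, 965, 243, 221 and 233 in PBS and 162 to 652 with a median of 273 in KA mice, and the fold of -0.66 ± 0.47 in all libraries became 0.51 ± 0.25 within set 5. The PBS mice of set 4 were far above every other mouse, and the rest overlapped. In input it was 217 in PBS and 399.6, 643 and 152 in KA mice at 24 h (1.13 ± 0.62). At 2 weeks it was 223, 149 and 184 in PBS and 221 to 481 with a median of 298 in KA mice, with KA mouse 7 just below PBS mouse 2 (0.86 ± 0.27, edgeR adjusted p = 0.266). Pclo, by contrast, was lower in all 6 KA mice at 2 weeks in m6A, with 2101, 1877, 1349, 1449 and 1543 in PBS and 966 to 1320.2 with a median of 1199 in KA mice (-0.45 ± 0.17, edgeR adjusted p = 0.875). It was the single member whose groups did not overlap there, as for 0.594% of all genes in either direction and 0.334% below, and within set 5 the fold was -0.23 ± 0.22. Erc2 did the same at 24 h, with 598, 484 and 502 in PBS and 403, 443, 481, 456 and 179.7 in KA mice (-0.48 ± 0.28, edgeR adjusted p = 0.983), where groups were separate for 3.71% of all genes and KA was below for 1.09%. Its input fold at 24 h was -0.39 ± 0.33, and without KA mouse 8 it was -0.14 ± 0.23 in input and -0.34 ± 0.20 in m6A.

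**Figure D5:**
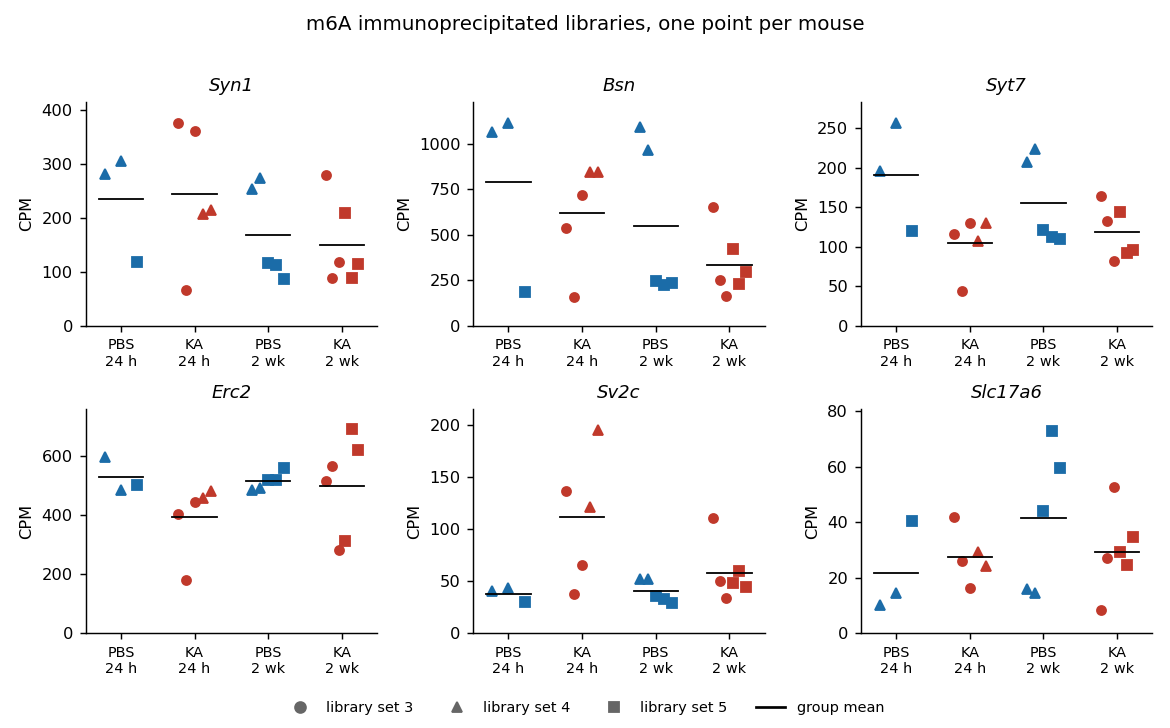
Level in the m6A libraries in CPM (y axis, from 0) of 6 members in each mouse by group, with the group mean as a black bar and the shape of the point showing the library set. Syn1, Bsn and Syt7 are higher in the PBS mice of set 4 than in those of set 5, and 4 of 5 KA mice at 24 h are above all PBS mice for Sv2c.

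Of the remaining members, the neurexins Nrxn2 and Nrxn3, presynaptic adhesion proteins, had m6A folds of -0.27 ± 0.43 and -0.26 ± 0.23 at 24 h, and Nrxn2 had 0.61 ± 0.21 in input at 2 weeks. The endocytosis genes Dnm1, Synj1 and Amph had m6A folds of -0.43 ± 0.37, -0.22 ± 0.32 and -0.41 ± 0.34 at 24 h and of -0.29 ± 0.26, -0.05 ± 0.19 and -0.21 ± 0.17 at 2 weeks. None passed. Among the 58 further release and recycling genes tested, none passed in any of the 4 comparisons by edgeR, and 2, 1, 6 and 12 had an unadjusted p under 0.05 in m6A at 24 h and 2 weeks and input at 24 h and 2 weeks. Their median m6A folds were -0.01 at 24 h and -0.06 at 2 weeks.

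Whether the effect of kainic acid differed between 2 weeks and 24 h was tested in 1 fit over the m6A libraries. No member passed by edgeR, against 0.00573% of all genes, none had an unadjusted p under 0.05 (2.45% of all genes), and DESeq2 and limma-voom called none. The smallest p values belonged to Syn3 (0.68 ± 0.35), Sv2c (-0.90 ± 0.49) and Erc2 (0.49 ± 0.33), as differences of log2 folds. Whether the m6A over input ratio itself changed with kainic acid at 2 weeks was tested over the 6 KA and 3 PBS mice with both libraries. Again no member passed by edgeR, against 0.00636% of all genes, none had an unadjusted p under 0.05 (4.27% of all genes), and DESeq2 and limma-voom called none. The smallest p values there belonged to Bsn (-0.35 ± 0.20), Unc13b, a Munc13 priming factor (-0.38 ± 0.24), and Amph (-0.28 ± 0.18). Over the 35 members the median difference was -0.11 with 22 below 0, and that of all 15722 genes was -0.03. For Erc2 and Syt7, whose ratios stood farthest from the typical gene by their p values, the differences were -0.15 ± 0.21 and -0.15 ± 0.20. A p that missed the threshold does not show that the ratios of KA and PBS mice were alike.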

How the data were processed

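Trizol-extracted hippocampal RNA was made into m6A-immunoprecipitated and input libraries with a stranded total RNA kit, per the labels. The deposited values were raw counts per gene and sequencing lane, made by the authors against mm10 per the submitters' processing notes, and the aligner, the counter and its use of strand were not given in the sources used here. Reads of overlapping antisense genes may therefore be included. The 4 lanes of each library were summed, giving 35 libraries. The headings name 8 libraries as input, and the assay of the other 27 was taken from the heading's prefix or its absence. A further 8 columns that match no labelled sample were not used. Inputs under 100000 counts were set aside. CPM is counts per 1000000 of the library's total. The members and gene lists were chosen with earlier results of these data known.

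Comparisons used edgeR 4.0.16 in R 4.3.3 (quasi-likelihood test, TMM, filterByExpr, Benjamini-Hochberg over all genes tested), after a test on simulated data. All KA and PBS comparisons used group alone. The input fit at 24 h spanned all 13 inputs, so the lone PBS library was assumed to vary like the others. Ratios of m6A over input were fitted with mouse as a block, since the labels give both libraries of a mouse to the same animal. Over 10284 genes the deviations of a mouse's libraries from their group means correlated at -0.01 to 0.83 (median 0.42), over 0.1 in 10 of 13 mice. For PBS mouse 4 (0.06) and KA mice 6 (-0.01) and 9 (0.09) at 2 weeks, the input of another mouse in the group correlated better than their own. The pairing of these mice is therefore less sure. Alternatives were DESeq2 1.42.0, limma-voom 3.58.1 with quality weights, library-size scaling, filters, library set as a block, and each library left out. Fits within 1 library set or kind of heading were chosen after the data were seen. Members described in full were those past an adjusted p of 0.05, or otherwise the 3 of smallest p, and 10 anchor genes, whose ratios are given only as a range. Replicates are separate mice.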

Additional observations from a re-analysis of the deposited data

Results flagged for a closer look

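In 51 pairs of a group of 4 to 10 mice and a described member, 9 (17.6%) had a mouse far from the others by Dixon's test, which chance alone flags in about 1 of 20. KA mouse 8 at 24 h held 6 of them in the m6A libraries. There the calcium sensor Syt7 had 44.3 CPM against 107 to 131 in the other 4 mice, and the scaffold Erc2 179.7 against 403 to 481. Vamp2 had 78.9 against 279.8 to 402, Rims1 178 against 368 to 432, Unc13a 47.1 against 234 to 257 and Bsn 158 against 535 to 844. The same mouse had the low neuronal and astrocyte marker sums, the many detected genes and the high mitochondrial share of input given above. Their part in these values was not tested. KA mouse 42 at 2 weeks held the other 3, with Snap25 low in both assays. Its Snap25 level was 542 CPM in m6A against 1058 to 1526 in the other 5 mice, and 636 in input against 826 to 883. Its input level of Slc17a6 was 8.74 CPM against 18.3 to 23.9.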

How the results depend on the processing

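No member was called in the KA comparisons, the time comparison or the change of ratio by edgeR with any single library left out. By limma-voom 4 members were called in m6A at 24 h, 3 in input at 24 h and 2 in input at 2 weeks, and by DESeq2 1 and 3 in input at 24 h and 2 weeks, while set 4 alone gave 2 in m6A at 24 h. For m6A over input, PBS mice gave 4 by DESeq2, 8 by limma-voom, 4 with library-size scaling, 2 with no filter on low counts, 0 in mice with a set 5 library and an unprefixed input, and 0 to 4 with single mice left out. KA mice at 2 weeks gave 7, 15 and, with single mice left out, 1 to 7, and KA mice at 24 h 1 by DESeq2, 3 by limma-voom, 2 with library-size scaling and 1 with no filter. Without the mouse block the unpaired fit called 0 members in PBS mice, 0 in KA mice at 2 weeks and 0 at 24 h. Over all genes edgeR called 1, DESeq2 156 and limma-voom 1120 in m6A at 24 h, 0, 15 and 2 at 2 weeks, 0, 201 and 1076 in input at 24 h, 0, 113 and 342 in input at 2 weeks, 455, 999 and 2732 for the PBS ratio and 1918, 2397 and 5247 for the KA ratio at 2 weeks. Whether the tools or the spread of single libraries made these differences was not tested.

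In m6A at 24 h 4 of the 35 members changed sign with the set as a block and 4 in set 4 alone. With the set as a block these were Syt5 (-0.12), Stx1a (-0.72), Rab3a (-0.69) and Unc13c (0.060). In m6A at 2 weeks 12 of the 35 members changed sign with the set as a block and 15 in set 5 alone. The set as a block gave Cplx2 0.34, Nrxn2 0.49, Syn1 0.45, Snap25 -0.17, Vamp2 0.39, Slc17a7 0.13, Unc13a 0.10 and Bsn 0.49, and set 5 alone gave 0.35, 0.51, 0.47, -0.15, 0.41, 0.16, 0.12 and 0.51. By limma-voom Snap25 was -0.076 and Slc17a7 0.033 there, and with library-size scaling Snap25 was -0.049. In m6A at 24 h library-size scaling gave Syn1 0.054 and Slc17a7 0.058. In input at 24 h it gave Syn1 -0.075, Vamp2 -0.0014 and Unc13a -0.11, and Rims1 was 0.19 by limma-voom, 0.00295 with heading as a block, 0.21 with all labelled inputs and 0.20 in unprefixed inputs. In input at 2 weeks Vamp2 was -0.028 with heading as a block and -0.025 in unprefixed inputs. With single libraries left out, m6A folds at 24 h ran from -0.35 to 0.26 for Syn1, -0.32 to 0.22 for Slc17a7, -0.033 to 1.13 for Slc17a6 and -0.49 to 0.14 for Unc13a. At 2 weeks they ran from -0.34 to 0.17 for Syn1, -0.15 to 0.19 for Snap25, -0.27 to 0.13 for Vamp2 and -0.37 to 0.050 for Slc17a7, and in input at 24 h from -0.017 to 0.41 for Syn1, -0.28 to 0.20 for Rims1 and -0.083 to 0.44 for Unc13a. Input at 24 h could not be fitted without its only PBS library. Depth limits the 3 inputs set aside, in which the 35 members had 30 to 418 counts in all.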
